A study of Homo sapiens with 6 samples.

Results

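TRIM28 and 9 genes that act with it in heterochromatin silencing were followed in TC-71 cells, a human Ewing sarcoma line, with and without knockout of XG, the gene of the Xg blood group antigen. The genes were taken from the table by name: TRIM28, SETDB1, CBX1, CBX3, CBX5, CHD3, ATF7IP, MPHOSPH8, MORC2 and DNMT1. They are 10 of 60662 genes in the table and of 14425 that passed the filter on low counts, and all 10 passed it. They were chosen by function around TRIM28, which was itself selected on its fold change between wildtype and knockout in these same libraries. The members' differences are therefore a description. Whether each passed the threshold of the fit over all genes is given as part of it, and nothing rests on them. Each group, wildtype and XG knockout, had 3 libraries of poly(A)-selected RNA, and neither was given a treatment. The cells of both groups grew in the same serum-supplemented medium. Whether the knockout line is clonal or pooled is not given in the labels. Nor do they say that libraries of a group came from separate cultures, so a p-value here weighs a difference against library-to-library spread that may be only technical.

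TRIM28, also called KAP1, is a corepressor that KRAB zinc finger proteins bring to DNA, above all to endogenous retroviruses. There it recruits the histone methyltransferase SETDB1, which places the H3K9me3 mark, together with HP1 proteins that bind this mark and the NuRD chromatin remodelling complex. The HUSH complex and DNA methylation keep many of the same elements silent.

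The 6 libraries held between 22557187 and 31214099 counts assigned to genes. XG, the targeted gene, stood at 45.4, 47.1 and 44.4 CPM (counts scaled to library size by the trimmed mean of M values) in wildtype and at 29.97, 29.98 and 28.86 in the knockout libraries, a log2 fold change of -0.63 with an edgeR adjusted p of 1.65e-06. XG reads thus remained in the libraries labelled knockout. The Ewing sarcoma marker CD99 had 503, 498 and 488 CPM in wildtype and 461, 458 and 455 CPM in the knockout. The blood marker PTPRC, the epithelial marker EPCAM and the endothelial marker PECAM1 had at most 3, 8 and 1 counts in any library. Knockout libraries 1 and 2 stood apart from knockout library 3 in a measure tied to base composition. For the fifth of genes with the highest GC content, the median log2 difference from the wildtype mean was -0.157 and -0.126 in the former and 0.013 in the latter. Knockout library 3 was also nearer to wildtype than to its own group. Its chi-square per gene, a measure of difference between 2 libraries, was 2.28, 2.39 and 2.16 against wildtype libraries 1, 2 and 3. Against knockout libraries 1 and 2 it was 4.75 and 4.35.

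The 3 members that stood lower in the knockout had the most GC-rich transcripts of the 10, so base composition is shown first. The order within the other 7 did not follow it: SETDB1, at 50.9% GC, had the highest log2 fold change. The first 120 coding bases of 5 of the 10 members are shown, 5′ to 3′, from GENCODE 29 transcripts, with each CG dinucleotide in capitals. TRIM28 and DNMT1, which fell in the knockout, come first and the 3 HP1 genes, whose levels overlapped between groups, come after.
TRIM28: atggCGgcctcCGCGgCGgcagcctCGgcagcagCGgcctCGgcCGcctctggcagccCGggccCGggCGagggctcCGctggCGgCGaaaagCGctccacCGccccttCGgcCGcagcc
DNMT1: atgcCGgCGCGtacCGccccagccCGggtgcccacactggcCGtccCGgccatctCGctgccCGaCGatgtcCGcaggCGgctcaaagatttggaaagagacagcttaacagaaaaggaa
CBX1: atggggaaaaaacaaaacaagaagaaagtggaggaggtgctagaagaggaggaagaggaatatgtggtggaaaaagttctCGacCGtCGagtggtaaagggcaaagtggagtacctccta
CBX3: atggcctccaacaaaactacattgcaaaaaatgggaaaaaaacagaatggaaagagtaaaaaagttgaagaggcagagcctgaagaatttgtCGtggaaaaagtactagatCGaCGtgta
CBX5: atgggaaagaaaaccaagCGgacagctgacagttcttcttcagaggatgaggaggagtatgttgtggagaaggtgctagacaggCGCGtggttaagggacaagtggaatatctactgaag
The TRIM28 stretch was 80.8% G or C and held 18 CG dinucleotides. DNMT1 held 12 at 63.3%. CHD3, which also stood lower and is not shown, held 6 at 64.2%, fewer than MPHOSPH8 among the overlapping genes. The HP1 stretches held 3 each, at 45.8% for CBX1, 37.5% for CBX3 and 48.3% for CBX5. Among the overlapping genes not shown, MPHOSPH8 held 7 at 58.3%, ATF7IP 3 at 42.5%, MORC2 2 at 41.7% and SETDB1 0 in the same stretch. Over the whole coding sequence, GC content was 62.2% in TRIM28, 55.9% in DNMT1 and 56.1% in CHD3, against 48.1%, 38.6% and 41.7% in CBX1, CBX3 and CBX5. It was 53.6% in MORC2, 50.9% in SETDB1, 44.3% in ATF7IP and 44.0% in MPHOSPH8.

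Of the 10 genes, 2 fell in the knockout by the edgeR quasi-likelihood test at an adjusted p of 0.05, namely TRIM28 and DNMT1, and none rose. Of all tested genes, 1.36% were called in either direction, 0.915% lower and 0.444% higher. At an unadjusted edgeR p under 0.05, the count was 3 of the 10 and 16.8% of all tested genes. In 3 of the 10, TRIM28, DNMT1 and CHD3, every knockout library lay below every wildtype library, as it did in 9.80% of all tested genes. SETDB1, the 3 HP1 genes, ATF7IP, MPHOSPH8 and MORC2 overlapped between the groups. At an adjusted p of 0.01 TRIM28 alone was called, and leaving out 1 library left between 1 and 3 of the 10 genes called. The 3 were found without knockout library 3, where 12.7% of all tested genes were called.

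**Figure D1:**
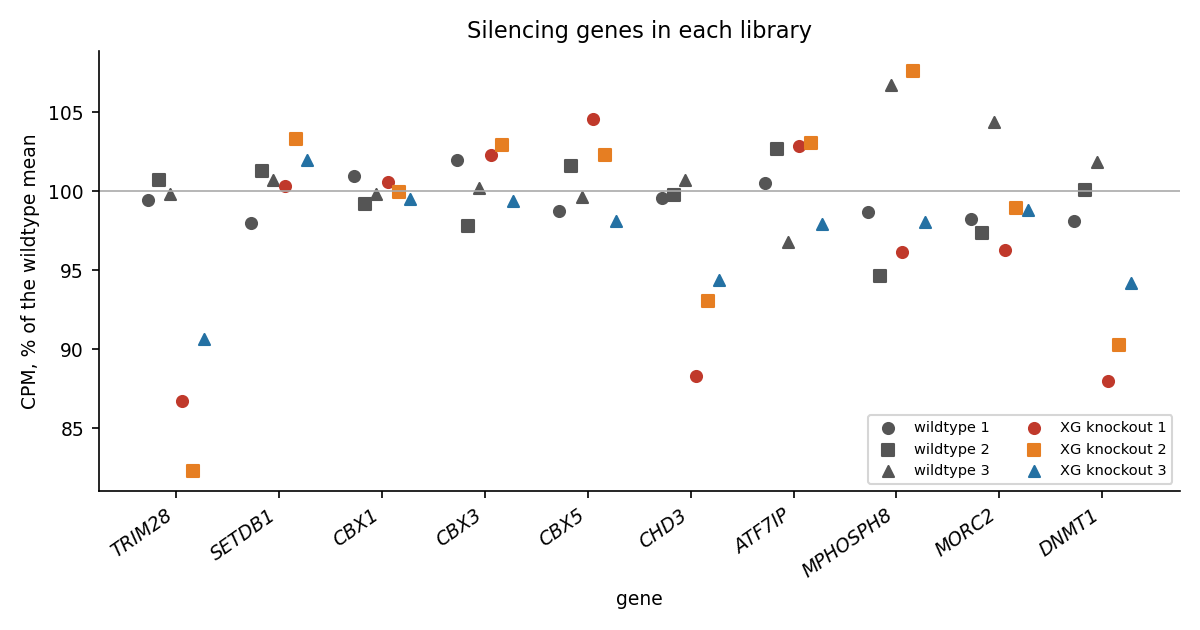
Level of each of the 10 silencing genes in each library, as a percent of the gene's wildtype mean; each point is 1 library, 3 wildtype and 3 XG knockout. The knockout points of TRIM28 lie between 82.3% and 90.7%, and those of DNMT1 and CHD3 also lie below all their wildtype points, while the other 7 genes overlap.

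TRIM28 itself lies on chromosome 19 at 58544064 to 58550722 on the plus strand (GRCh38, gene ENSG00000130726.12). Its level was 854, 865 and 858 CPM in the wildtype libraries and 745, 707 and 779 CPM in the knockout libraries. The wildtype libraries were close together and the knockout libraries were spread more widely below them, with library 2 lowest. The means were 859 ± 5.44 and 744 ± 35.9 CPM (SD, n = 3 each), so that the knockout stood at 86.6% of wildtype. This is a log2 fold change of -0.21 with a standard error of 0.03 and a 95% interval from -0.27 to -0.14. The authors' deposited table gives a log2 fold change of -0.21 for TRIM28. By the absolute fall in mean CPM, TRIM28 ranked 16 among all tested genes. That rank depends on a gene's level, and TRIM28 was at the 99.1 percentile of mean CPM. XG, at 64.8% of wildtype, ranked 256 by the same measure.

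SETDB1, the H3K9 methyltransferase that TRIM28 recruits, had 57.7, 59.7 and 59.4 CPM in wildtype and 59.1, 60.9 and 60.1 CPM in the knockout. The groups overlapped, with a log2 fold change of 0.03 and a 95% interval from -0.06 to 0.11. ATF7IP, the partner that stabilises SETDB1 in the nucleus, had 178, 182 and 172 CPM against 182, 183 and 174 CPM. Its log2 fold change was 0.02, with an interval from -0.05 to 0.09. Neither SETDB1 nor ATF7IP was called, and these intervals still leave room for changes of a few percent in either direction.

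The HP1 proteins read the H3K9me3 mark through their chromodomain. CBX5, which encodes HP1 alpha, had 430, 442 and 434 CPM in wildtype and 455, 445 and 427 CPM in the knockout, where library 1 was highest and library 3 lowest. CBX1, which encodes HP1 beta, had 244, 240 and 241 CPM against 243, 241 and 240 CPM, the closest pair of groups among the members. CBX3, which encodes HP1 gamma, had 285, 274 and 280 CPM against 286, 288 and 278 CPM. Of the summed HP1 level per kilobase of exon, CBX1 made up 47.8% ± 0.04 in wildtype and 47.4% ± 0.44 in the knockout, CBX3 34.8% ± 0.43 and 35.04% ± 0.25, and CBX5 17.4% ± 0.41 and 17.6% ± 0.33 (SD, n = 3). These shares differed by less than 1 percentage point between the groups. The split among the genes depends on the lengths used, which are given below. Reads can be split between near copies. The longest stretch that any pair of HP1 coding sequences shared was 19 bases, between CBX3 and CBX5. The 8 CBX3 pseudogene rows held 58 counts against 45590 for CBX3. Multi-mapping reads were not counted, so these counts cannot show whether CBX3 lost reads that it shares with its pseudogenes.

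CHD3 is a remodelling ATPase of the NuRD complex, which TRIM28 binds. It had 280.0, 280.4 and 283 CPM in wildtype and 248, 262 and 265 CPM in the knockout, 91.9% of the wildtype mean. The groups did not overlap, yet the edgeR test narrowly did not call CHD3, at an edgeR adjusted p of 0.0505. Its log2 fold change was -0.12, with a 95% interval from -0.18 to -0.06. It was called with DESeq2, with limma voom and when knockout library 3 was left out (log2 fold change -0.14). RLE scaling, no filter on low counts, and the GC correction without knockout library 2 also called it.

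DNMT1, the methyltransferase that copies DNA methylation onto new strands, had 424, 433 and 440 CPM in wildtype and 381, 391 and 408 CPM in the knockout. Library 3 was the highest of the knockout libraries and still lay below every wildtype library. The means were 433 ± 8.09 and 393 ± 13.5 CPM (SD, n = 3), and the log2 fold change was -0.14 with a 95% interval from -0.20 to -0.08. DNMT1 was no longer called when wildtype library 1, 2 or 3, or knockout library 1 or 2, was left out, with log2 fold changes from -0.15 to -0.12. DNMT1 shares 83 of its 9796 exon bases with S1PR2 on the same strand.

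MPHOSPH8 is the H3K9me3-binding subunit of HUSH, and MORC2 is an ATPase that works with HUSH to compact chromatin. MPHOSPH8 had 73.5, 70.5 and 79.5 CPM in wildtype and 71.6, 80.2 and 73.1 CPM in the knockout. MORC2 had 117, 116 and 124 CPM against 114, 118 and 117 CPM. Neither pair of groups separated. Over the 7 overlapping genes, the knockout mean was 98.0% to 101.9% of wildtype, and their 95% intervals together ran from 93.2% to 108.3%.

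**Figure D2:**
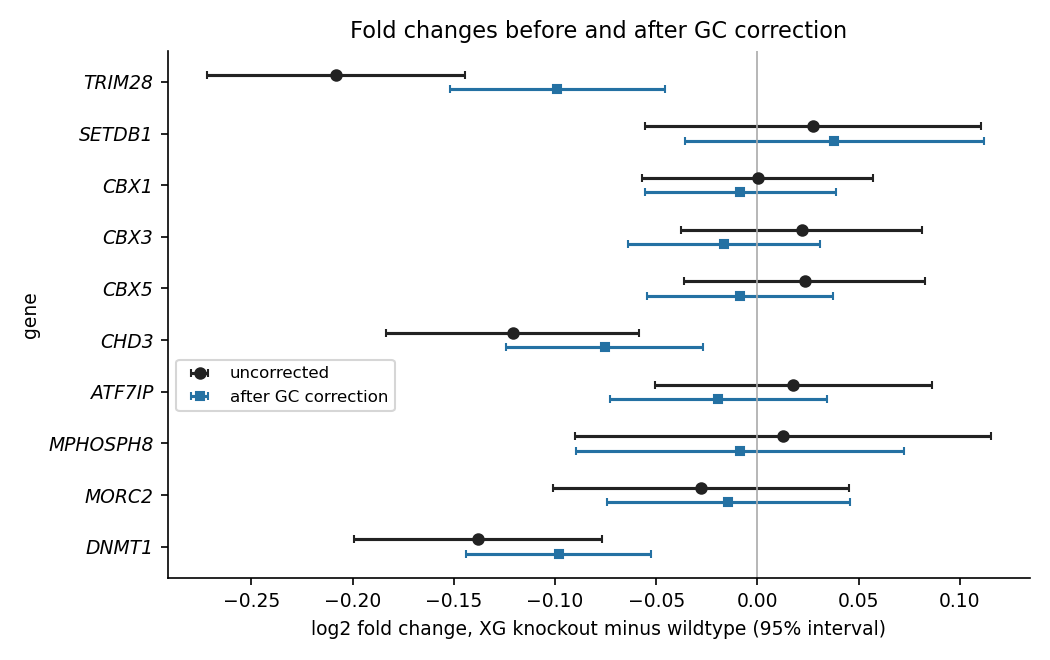
Log2 fold change (XG knockout minus wildtype) of the 10 silencing genes with 95% intervals, before (circles) and after (squares) a correction for transcript GC content. TRIM28 moves from -0.21 to -0.10, DNMT1 from -0.14 to -0.10 and CHD3 from -0.12 to -0.08, and the intervals of the other 7 genes include 0 in both fits.

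Per kilobase of exon, TRIM28 was by far the highest of the 10 genes in wildtype, at 199.5 ± 1.26 CPM per kb, followed by CBX1 at 79.3 ± 0.72, CBX3 at 57.8 ± 1.22 and DNMT1 at 44.2 ± 0.83. CBX5 at 28.95 ± 0.43, CHD3 at 27.2 ± 0.17, MORC2 at 17.7 ± 0.68, MPHOSPH8 at 15.2 ± 0.93 and ATF7IP at 13.4 ± 0.40 CPM per kb came next. SETDB1 was lowest at 8.31 ± 0.15 CPM per kb (SD, n = 3 throughout). No 2 neighbours in this order overlapped over the wildtype libraries, and the knockout libraries gave the same order, again without overlap between neighbours. The lengths are those of all annotated exons of a gene together, 3044 bases for CBX1 and 4840 for CBX3. The transcripts used for the coding sequences above have 2232 and 2128 bases. For ATF7IP the 2 lengths are 13189 and 4847 bases. The order of the genes thus depends on the length used, and the lack of overlap between libraries does not bear on that. The level of TRIM28 per length was 24.0 ± 0.31 times that of SETDB1 in wildtype and 20.4 ± 1.15 times in the knockout. Against CBX1, the same ratio was 2.51 ± 0.04 and 2.18 ± 0.11. Against DNMT1, which itself stood lower in the knockout, it was 4.52 ± 0.08 and 4.31 ± 0.17. All these ratios use CPM without the GC correction given below. That correction moved the log2 fold change of TRIM28 from -0.21 to -0.10 and that of SETDB1 from 0.03 to 0.04.

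The split between lower and overlapping members was also one of transcript GC content. The 3 lower genes had longest transcripts of 55.4% to 63.7% GC, and the 7 overlapping genes had 39.5% to 51.4%. Among all tested genes with at least 55% GC, 73.9% had a negative log2 fold change, 2.43% were called lower and 17.7% had every knockout library below every wildtype library. Among those below 45% GC, the same shares were 30.1%, 0.108% and 3.50%. These bounds were chosen after the data were seen.

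**Figure D3:**
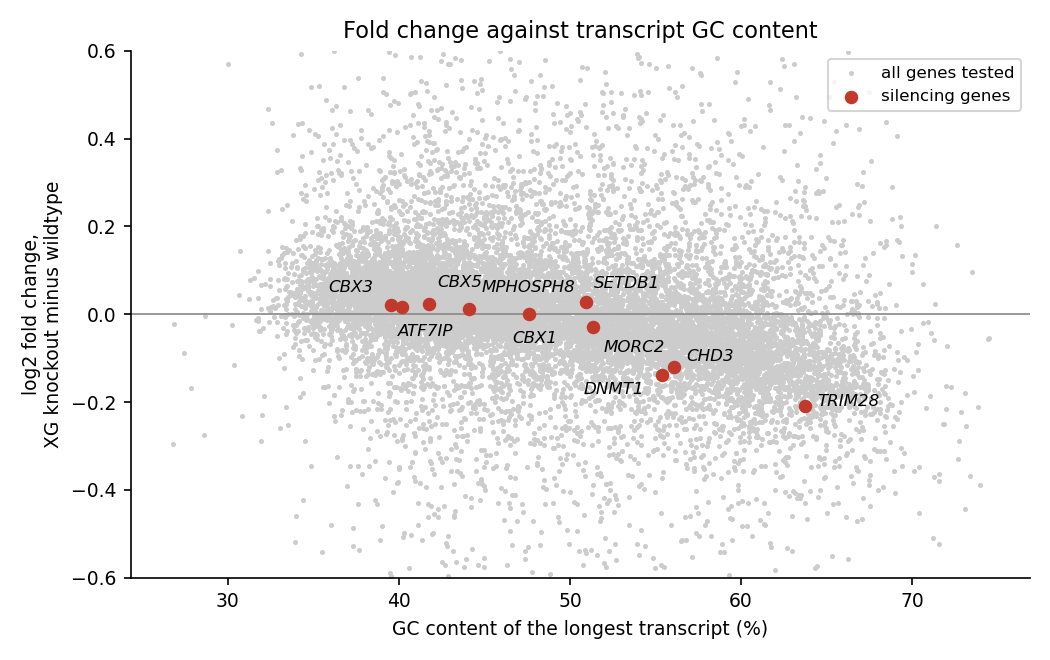
Log2 fold change (XG knockout minus wildtype) against the GC content of the longest transcript, for all tested genes with a GC value (grey) and the 10 silencing genes (red); 241 genes beyond 0.6 in either direction are not drawn. The cloud tilts downward with GC content, and TRIM28, DNMT1 and CHD3 lie on its GC-rich side.

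After a smooth trend on GC content was removed from each library, TRIM28 stood at 817, 828 and 830 CPM in wildtype and at 822, 753 and 738 CPM in the knockout. Knockout library 1 now lay inside the wildtype range, and libraries 2 and 3 stayed below it. The log2 fold change became -0.10 with a 95% interval from -0.15 to -0.05 and was still called, where 2.35% of all tested genes were called and 1.26% were called lower. DNMT1 stood at 420, 425 and 434 CPM against 391, 401 and 401 CPM after the correction, still without overlap, and was called at a log2 fold change of -0.10, but not when wildtype library 2 or 3 was left out (-0.10 and -0.09). CHD3 stood at 276, 275 and 278 CPM against 256, 270 and 261 CPM, without overlap and not called. With the correction, TRIM28 was no longer called when any of wildtype libraries 1, 2 and 3 or knockout libraries 2 and 3 was left out, with log2 fold changes from -0.11 to -0.07. With knockout library 3 as the only knockout library and no correction, TRIM28 was called at a log2 fold change of -0.14, beside 0.830% of all tested genes. The part of GC content in the remaining difference was not tested.

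**Figure D4:**
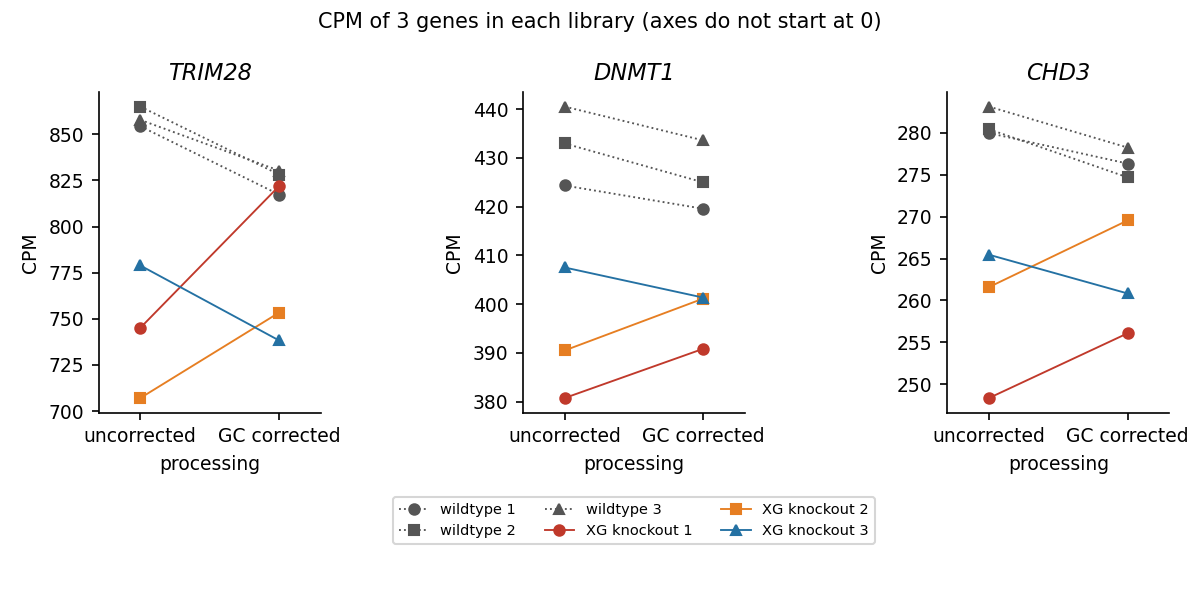
CPM of TRIM28, DNMT1 and CHD3 in each of the 6 libraries before and after the GC correction, 1 line per library; the vertical axes do not start at 0. For TRIM28, knockout library 1 moves from 745 to 822 CPM, into the wildtype range, while knockout library 3 moves from 779 to 738 CPM.

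The other genes of the pathway were read from 9 lists. Of 14 other NuRD subunits tested, 2 fell and none rose, where 0.915% of all tested genes were called lower. GATAD2A, a scaffold subunit, had 231, 229 and 231 CPM in wildtype and 197, 196 and 219 CPM in the knockout (log2 fold change -0.17, edgeR adjusted p 0.0262). MBD3, the subunit with a methyl-CpG-binding-like domain, had 104, 106 and 100.3 CPM against 78.9, 84.9 and 98.5 CPM (log2 fold change -0.24, edgeR adjusted p 0.0383). Knockout library 3 was nearest to wildtype in both genes. Both were also called after the GC correction, at edgeR adjusted p 0.00183 and 0.00674, although MBD3 then lost its call without wildtype library 1 or 2 (edgeR adjusted p 0.0555 and 0.0956). Without the correction, leaving out any library but knockout library 3 ended both calls, with edgeR adjusted p from 0.0831 to 0.158 for GATAD2A and from 0.132 to 0.215 for MBD3, and DESeq2 did not call MBD3 (adjusted p 0.2). The median log2 fold change was -0.0012 over the 14 subunits and 0.0019 over all tested genes.

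Of 7 other H3K9 methyltransferases and cofactors, 1 fell, against 0.915% of all tested genes. It was EHMT2, which encodes G9a, an H3K9 mono- and dimethyltransferase. EHMT2 had 161, 161 and 166 CPM in wildtype and 143, 140 and 154 CPM in the knockout, with a log2 fold change of -0.16 and an edgeR adjusted p of 0.036. Its transcript is 60.9% GC, and after the GC correction it was not called, at -0.07 and an edgeR adjusted p of 0.162. Leaving out any library but knockout library 3 also ended the call, with edgeR adjusted p from 0.106 to 0.196.

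No gene of the other 7 lists was called by edgeR, DESeq2 or limma voom. Counts at an unadjusted edgeR p under 0.05 are to be read against 16.8% of all tested genes. Among 3 tested genes of the TIF1 family and MAGE partners, 1 had an unadjusted edgeR p under 0.05, TRIM33, at 81.8 CPM in wildtype and 86.7 CPM in the knockout. The paralog TRIM24 had 39.2 and 37.4 CPM, and MAGEA3 and MAGEA6, near-identical copies whose reads may be split or lost, had at most 9 counts in any library. Of 8 HUSH, MORC and SETDB1 accessory genes, 1 had such a p: ATF7IP2, at 14.6 and 16.2 CPM. TASOR, the scaffold of HUSH, had 75.6 and 78.0 CPM. The 15 genes of DNA methylation included 4 with such a p, among them UHRF1, which guides DNMT1 to hemimethylated DNA, at 171 and 156 CPM, and MBD1, at 67.1 and 62.1 CPM. The other two, the demethylating enzyme TET1 at 63.7 and 68.3 CPM and DNMT3B, had higher means in the knockout. After the GC correction 1 gene of that list was called higher, DNMT3B, a de novo methyltransferase, at 20.8 and 23.5 CPM before correction (edgeR adjusted p 0.0478 with it).

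In the list of HP1 partners and heterochromatin factors, 3 of 15 genes had an unadjusted edgeR p under 0.05, as had 16.8% of all tested genes. CHAF1A, a histone chaperone subunit that binds HP1, had 124 CPM in wildtype and 114 CPM in the knockout, and the chaperone DAXX 100.5 and 93.0 CPM. KMT5B, an H4K20 methyltransferase, was the third and went the other way, at 34.97 and 38.4 CPM. SUMO modification of TRIM28 governs its binding to SETDB1, and 2 of 16 genes of SUMO conjugation had such a p, among them the SUMO protease SENP2 at 77.1 and 82.4 CPM. Of 23 tested KRAB zinc finger genes, the partners that bring TRIM28 to DNA, 2 had such a p, ZNF649 at 4.11 and 3.02 CPM and ZNF689 at 33.3 and 30.5 CPM. Median log2 fold changes were 0.04 for the HP1 partners, 0.01 for the SUMO genes and 0.02 for the zinc finger genes.

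None of the tested genes derived from endogenous retroviruses, the class of element that TRIM28 is best known for silencing, was called. Of 12 listed, 5 passed the filter and none of these had an unadjusted edgeR p under 0.05. ERVK3-1 had 7.09, 6.49 and 8.14 CPM in wildtype and 6.51, 6.58 and 5.56 CPM in the knockout, and ERVMER61-1 had 3.37, 3.57 and 3.56 against 3.94, 2.85 and 3.21 CPM. Their log2 fold changes were -0.21 (95% interval from -0.44 to 0.01) and -0.08 (from -0.38 to 0.22). After the GC correction the ERVK3-1 interval ran from -0.45 to -0.02, and the gene was not called. Intervals this wide leave room for changes as large as that of TRIM28. Of the 5 tested genes, 2 had a positive log2 fold change. The 7 listed genes that did not pass the filter had at most 8 counts in any library. The median log2 fold change of the 5 was -0.0028. Counting without multi-mapping reads leaves most repeat copies out of these values.

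TRIM28 lies near the end of the long arm of chromosome 19, among zinc finger genes. Of 30 tested genes that start within 500 kb of it, itself left out, 28 had a negative log2 fold change, and 24 had one after the GC correction. Without the correction, this was so for 75.0% of the tested genes of chromosome 19 and for 7084 of all 14425 tested genes. With it, 7154 of all tested genes had a negative log2 fold change. The median over the 30 was -0.11 before and -0.08 after the GC correction. Over all 981 tested genes of chromosome 19 it was -0.09 and -0.04. Of these, 3.77% were called lower, against 0.915% of all tested genes. After the GC correction these shares were 4.18% and 1.26%. TRIM28, DNMT1, GATAD2A and MBD3 all lie on this chromosome, whose tested genes had a median GC content of 58.4%. The part of chromosome and GC content in these values was not tested.

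**Figure D5:**
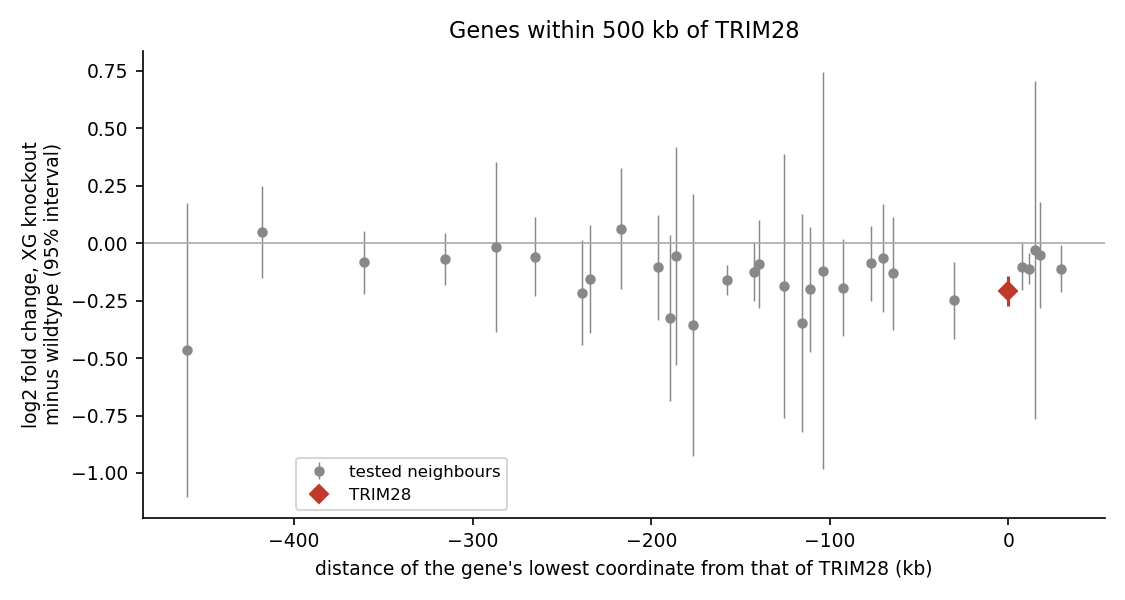
Log2 fold change (XG knockout minus wildtype) of tested genes within 500 kb of TRIM28, against the distance between lowest coordinates in kb, with 95% intervals as bars (grey, neighbours; red, TRIM28). Of the 30 neighbours, 28 lie below 0, as does TRIM28.

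The 5 protein-coding genes whose centred log2 CPM over the 6 libraries lay closest to that of TRIM28, of 4542 candidates, were NTMT1, HMGA1, UNC5B, THAP11 and FTL. Their root mean square differences from TRIM28 were 0.016 for NTMT1, 0.018 for HMGA1, 0.019 for UNC5B, 0.021 for THAP11 and 0.025 for FTL on the log2 scale. HMGA1, an architectural chromatin protein, had 606, 621 and 606 CPM in wildtype and 539, 510 and 571 CPM in the knockout. The genes were chosen for this likeness, so a library order shared with TRIM28 follows from the rule. The transcripts of these 5 genes were 56.3% to 61.3% GC, where the median over all tested genes was 48.0%.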

How the data were processed

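Poly(A) RNA of 3 wildtype and 3 XG knockout TC-71 libraries was sequenced. Per the submitters' processing notes, STAR 2.7.6a, Subread 2.0.1, DESeq2 1.38.3 and R 4.2.2 were used, with GRCh38. Per the file headers, the authors counted read pairs on the reverse strand over GENCODE 33 exons with featureCounts, and multi-mapping reads were not requested. The deposited counts are raw. The authors' deposited table holds log2 fold changes and p-values and does not state its direction, but its sign was that of knockout minus wildtype in 196 of 196 called genes.

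Counts were filtered with filterByExpr (minimum count 10, minimum total 15), scaled by TMM and tested with edgeR 4.0.16 (quasi-likelihood, two-sided, R 4.3.3) with Benjamini-Hochberg adjustment over 14425 genes at 0.05. The depth of 22557187 to 31214099 counts gave a median standard error of 0.06 on the log2 scale. In simulated counts, changed genes drawn from all tested genes were recovered in 12% of cases at a fold of 1.1 and 50% at 1.2. At folds of 1.5 and 2 the shares were 88% and 92%, and 13 of 134 calls were false. Those simulated counts held no GC trend, unlike the data. Other counts were simulated with a GC trend in every knockout library and no changed gene. There the uncorrected fit made 591 false calls, and the fit with the GC correction made 1. CPM values are TMM-scaled. For the GC correction, the lowess fit (span 0.5) of each library's centred log2 CPM on the GC content of the longest GENCODE 29 transcript, known for 99.5% of tested genes, entered the model as an offset. Alternatives were other scalings and filters, DESeq2 1.42.0, limma 3.58.1 (voom), a replicate block, libraries left out and the GC correction.

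The members, lists and rules were chosen with earlier results of these data known. Named genes were XG, the members, the called genes of each list (at most 4) or the 2 with the smallest p, called genes within 500 kb of TRIM28, and the 5 genes closest to it in pattern (mean CPM at least 50). Some genes and a sequence that these rules name are not reported here. DNMT3B, KMT5B, TET1, MAGEA3 and MAGEA6 were named after their values were seen.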

Additional observations from a re-analysis of the deposited data

How the results depend on the processing

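The signs of TRIM28, DNMT1, CHD3, SETDB1 and XG were the same under all 22 alternatives, and XG was called in each. TRIM28 was called in 16, DNMT1 in 12 and CHD3 in 6. Of the 10 members, 1 was called with the replicate block, 1 with knockout library 3 alone, 1 at an adjusted p of 0.01 and 0 with the GC correction and replicate block together. Leaving out 1 library gave 1 to 3, and 0 to 2 with the GC correction. Over all genes, 196 calls became 647 with no filter, 37 with the replicate block, 125 with knockout library 3 alone, 339 with the GC correction and 33 at 0.01. Leaving out 1 library gave 18 to 1851, the highest without knockout library 3, and 131 to 393 with the GC correction. Over all tested genes, same-numbered libraries did not deviate together (r of -0.04, -0.02 and -0.05). Whether they shared a preparation was not tested. The GC correction left 0 of the H3K9 methyltransferase list called lower and 1 of the DNA methylation list called higher. The cause of these shifts was not tested.

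With knockout library 3 alone, that library is assumed to vary as the wildtype libraries do. Signs near 0 changed in uncalled genes. CBX1 was at -0.00018 with RLE scaling, -0.00021 with DESeq2, -8.9e-05 with limma voom and -0.00057 with at least 100 counts in 3 libraries. With knockout library 3 alone, CBX1 was at -0.0072, CBX3 -0.0083, CBX5 -0.027, ATF7IP -0.031, MPHOSPH8 -0.024 and UHRF1 0.011. With the GC correction these were -0.0084 for CBX1, -0.016 for CBX3, -0.0087 for CBX5, -0.019 for ATF7IP and -0.0087 for MPHOSPH8. Adding the replicate block gave -0.0081, -0.016, -0.0086, -0.019 and -0.012, and -8.5e-05 for TASOR. Leaving out 1 library, with or without the GC correction, gave CBX1 -0.014 to 0.0071, CBX3 -0.029 to 0.037, CBX5 -0.021 to 0.048, ATF7IP -0.043 to 0.041, MPHOSPH8 -0.057 to 0.056, MORC2 -0.047 to 0.015, TASOR -0.016 to 0.061 and ERVMER61-1 -0.24 to 0.022. None of these was called.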
